A study of Mus musculus with 10 samples.

Results

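A set of 10 genes of Mueller glia homeostasis were followed in retinal cells of adult mice after optic nerve crush (ONC). They were the rows of the RNA-seq table with the symbols *Glul*, *Rlbp1*, *Slc1a3*, *Aqp4*, *Kcnj10*, *Dkk3*, *Sox9*, *Clu*, *Hes1* and *Abca8a*, 10 of 53974 genes, and the ATAC-seq regions within 1000 bp of an end of these genes, 2 of 16600 regions. The genes were chosen by name as markers of Mueller glia. The mice were C57BL/6, 8 to 10 weeks old, and homozygous for a floxed *Arid1a* allele, in the controls as well as in the deleted group. Groups were taken from the labels. WT stands for Arid1a fl/fl mice given AAV2-GFP in the vitreous, and cKO stands for Arid1a del/del, the same floxed mice given AAV2-Cre. Virus was injected 2 weeks before ONC and retinas were taken 3 days after it, so both groups were injured and virus-injected. Cre was driven by the CMV promoter, which is not restricted to a cell type, and each sample pooled several retinas. Live cells were sorted with an antibody to Thy1.2 to enrich retinal ganglion cells (RGCs). RNA-seq covered 3 WT and 3 cKO libraries, and ATAC-seq covered 2 and 2.

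Mueller glia are the radial glia of the retina and span its whole thickness. They clear glutamate from synapses, turn it into glutamine, carry potassium and water away from active neurons, and store retinoids for the visual cycle. After injury they can lower such genes and raise intermediate filaments such as GFAP, a response known as reactive gliosis.

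RefSeq start-site windows on GRCm38.p6, from 250 bases before the start of transcription to 50 after it, were matched for 5 of the 10 genes. Of these, 3 are shown because they differ in where the ATAC-seq peaks described below fall. The *Glul* window (chr1:153899679-153899978, plus strand) was covered for most of its length, though not all, by a peak of each WT library. The *Kcnj10* window (chr1:172340960-172341259, plus strand) was covered in smaller part by a peak of WT replicate 2 alone. The *Slc1a3* window (chr15:8710758-8711057, minus strand) met a peak of cKO replicate 2 alone, and only at its edge. Capitals mark, on either strand, the GC box (the letters GGGCGG), the CCAAT box (named by its letters) and the TATA box (the letters TATAAA), and no matches overlapped.
Glul: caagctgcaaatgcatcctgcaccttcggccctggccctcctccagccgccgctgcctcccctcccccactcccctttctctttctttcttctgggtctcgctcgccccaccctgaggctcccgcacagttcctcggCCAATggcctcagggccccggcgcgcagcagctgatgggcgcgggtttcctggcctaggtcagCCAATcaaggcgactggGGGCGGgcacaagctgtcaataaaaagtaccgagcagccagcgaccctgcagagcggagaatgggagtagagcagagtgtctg
Kcnj10: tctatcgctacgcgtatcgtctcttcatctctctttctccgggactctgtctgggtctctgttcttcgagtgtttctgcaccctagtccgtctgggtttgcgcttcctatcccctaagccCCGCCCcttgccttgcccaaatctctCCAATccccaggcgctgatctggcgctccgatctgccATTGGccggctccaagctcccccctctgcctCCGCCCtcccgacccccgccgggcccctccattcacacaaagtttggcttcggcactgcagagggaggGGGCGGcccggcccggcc
Slc1a3: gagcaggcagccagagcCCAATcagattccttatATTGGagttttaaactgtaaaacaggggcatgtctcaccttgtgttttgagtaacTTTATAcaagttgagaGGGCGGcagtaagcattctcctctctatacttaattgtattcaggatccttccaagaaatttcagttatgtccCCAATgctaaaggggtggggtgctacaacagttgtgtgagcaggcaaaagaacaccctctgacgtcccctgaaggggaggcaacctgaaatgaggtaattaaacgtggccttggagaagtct
The *Glul* window had 64.3% G or C and 17 CG pairs, with 1 GC box and 2 CCAAT boxes. The *Kcnj10* window was close to it in composition, with 63.7% G or C, 21 CG pairs, 3 GC boxes and 2 CCAAT boxes. The *Slc1a3* window stood apart, with 45.3% G or C and 3 CG pairs, 1 GC box, 3 CCAAT boxes and 1 match to the TATA box letters. That TATA match lay on the strand opposite to the gene, at -161 bp from the start of transcription. Over all 32851 windows of this length, the median was 52.7% G or C and 7 CG pairs. A GC box was found in 35.7% of them, a CCAAT box in 37.4% and a TATA box in 13.6%. Of 2 further motifs searched on both strands, TGGGAA, the core read by the Notch partner RBPJ, was found in 25.6% of all windows and among these 5 genes in *Abca8a* only, and ACAATG, a core read by SOX factors, was found in 12.6% of all windows and in none of the 5.

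Transcript levels are given as TPM, the authors' transcript abundance per length, scaled to a fixed sum per library. TPM does not retain read numbers, and the depth of each library is therefore unknown. The *Arid1a* level was not lower in the libraries labelled cKO, with 18.8, 27.9 and 25.0 TPM in replicates 1, 2 and 3. Those labelled WT had 18.8, 11.7 and 14.1 TPM. These values are summed over the whole gene and cannot show whether its floxed part was lost, so deletion was not tested here. The paper reported, in retinal sections, significantly less of the encoded protein in cells stained for beta-III tubulin after injection of the Cre virus. Directions below are given by label. The cell label was RGC, and the paper reported that nearly all sorted cells stained for Tuj1 (beta-III tubulin). In RNA, however, the genes that define RGCs most closely were low. *Pou4f2*, an RGC transcription factor, was listed at 0 in 5 of 6 libraries with at most 0.14 TPM in the other, and *Rbpms*, a pan-RGC marker, lay between 1.82 and 6.43 TPM. *Thy1*, which encodes the antigen of the sort, and *Isl1*, a transcription factor that bipolar and amacrine cells also use, were higher. They lay between 51.9 and 129 TPM and between 51.9 and 104 TPM. The other 8 RGC markers stayed at or under 20.6 TPM, among them *Tubb3*, the beta-III tubulin gene, between 3.45 and 12.0 TPM. The 12 RGC markers summed to between 144 and 205 TPM in WT and between 227 and 253 TPM in cKO. The 10 Mueller glia genes summed to 11278, 19556 and 21350 TPM in WT replicates 1, 2 and 3 and to 9034, 9621 and 22775 TPM in cKO, or between 0.906% and 2.28% of a library. In such bulk samples, fewer cells of a type and less RNA per cell cannot be told apart.

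All 10 genes passed the filter of at least 1 TPM in at least 3 libraries, as did 17555 genes in all. *Clu* was the most abundant of them, with a mean of 5471 TPM over the 6 libraries (rank 9 of the 17555 genes), followed by *Dkk3* at 4209 TPM (rank 14). *Rlbp1* at 1479, *Aqp4* at 1178, *Glul* at 1099, *Slc1a3* at 888 and *Abca8a* at 702 TPM came next, all within the 148 most abundant genes. *Hes1* at 363, *Sox9* at 180 and *Kcnj10* at 33.2 TPM were the lowest. Neighbours in this order were compared by their log2 ratio within each library. *Aqp4* and *Glul* differed by a mean of 0.06, less than the spread of 0.13 (SD, n = 6), and neither *Abca8a* and *Hes1* nor *Hes1* and *Sox9* differed beyond theirs. For the other neighbours the mean ratio exceeded its SD, and the widest step was from *Sox9* to *Kcnj10*, at 2.40 ± 0.21 on the log2 scale (SD, n = 6).

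**Figure D1:**
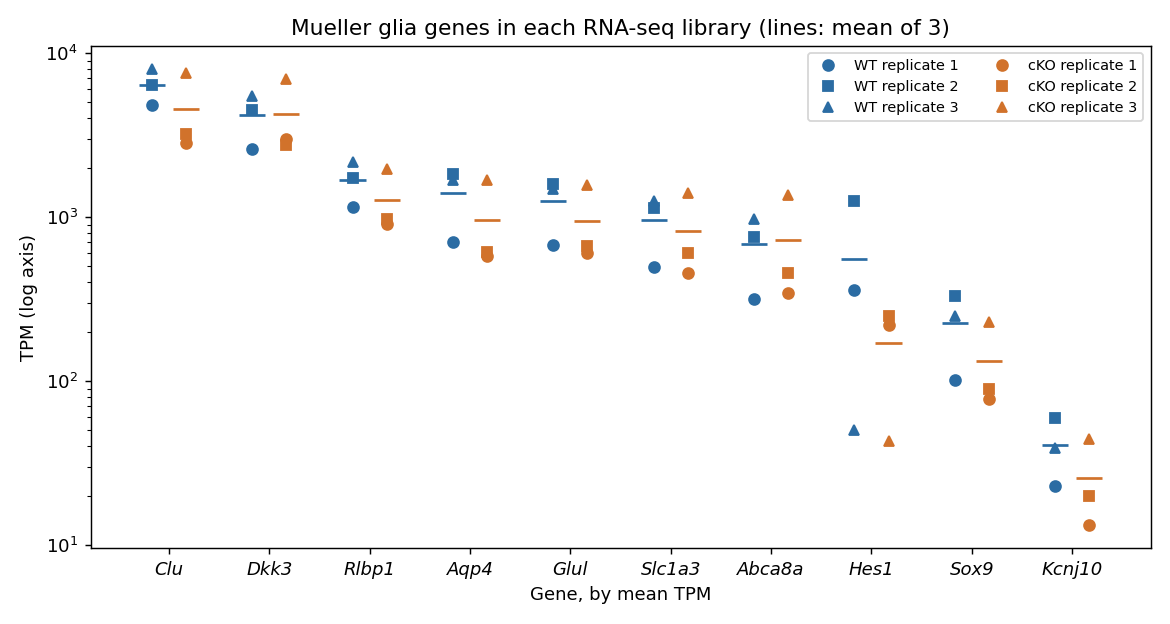
TPM of each of the 10 Mueller glia genes (log axis) in the 3 WT and 3 cKO RNA-seq libraries, with a symbol per replicate number and a line at the mean of each label. In each gene the WT and cKO points overlap, and for 9 of the 10 genes cKO replicate 3 lies at over 2 times the other cKO libraries.

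Glutamate handling was read from *Slc1a3*, the glutamate transporter GLAST, and *Glul*, glutamine synthetase, which makes glutamine from the glutamate that is taken up. *Slc1a3* had 496, 1127 and 1254 TPM in WT replicates 1, 2 and 3 and 459, 600 and 1392 TPM in cKO replicates 1, 2 and 3. *Glul* had 676, 1598 and 1480 TPM in WT and 607, 667 and 1569 TPM in cKO. In both genes WT replicate 1 was low among the WT libraries and cKO replicate 3 was high among the cKO libraries, and the groups overlapped. The log2 fold change (cKO against WT, on log2(TPM + 1), from limma) was -0.29 for *Slc1a3* (standard error 0.52, adjusted p = 0.794) and -0.44 for *Glul* (standard error 0.48, adjusted p = 0.656).

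*Rlbp1* encodes CRALBP, which binds 11-cis-retinoids. It had 1146, 1725 and 2177 TPM in WT and 902, 971 and 1954 TPM in cKO, with the same library low and the same library high as above. The fitted change in cKO was -0.44 on the log2 scale (standard error 0.39, limma, adjusted p = 0.577), the smallest standard error of the 10 genes.

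Water and potassium pass through AQP4, the water channel of the glial endfeet, and KCNJ10, the inward rectifier Kir4.1. *Aqp4* had 704, 1823 and 1671 TPM in WT and 582, 614 and 1677 TPM in cKO. *Kcnj10* had 22.8, 59.8 and 39.3 TPM in WT and 13.2, 19.9 and 44.1 TPM in cKO. For both, cKO replicates 1 and 2 lay below every WT library, but cKO replicate 3 lay between the highest WT library and the next. The log2 fold change was -0.61 for *Aqp4* (standard error 0.53, adjusted p = 0.573) and -0.71 for *Kcnj10* (standard error 0.51, adjusted p = 0.496 from limma).

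Clusterin, a secreted chaperone and lipid carrier, and DKK3, a secreted glycoprotein of the Dickkopf family, gave the highest levels. *Clu* had 4845, 6384 and 8014 TPM in WT and 2840, 3220 and 7524 TPM in cKO. *Dkk3* had 2608, 4501 and 5442 TPM in WT and 2990, 2736 and 6976 TPM in cKO. In *Clu* cKO replicates 1 and 2 lay below every WT library, whereas in *Dkk3* they lay above WT replicate 1 and cKO replicate 3 was the highest of the 6. The log2 fold change was -0.62 for *Clu* (standard error 0.43, adjusted p = 0.485) and -0.05 for *Dkk3* (standard error 0.46, adjusted p = 0.963 from limma).

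*Abca8a* encodes a lipid transporter of the ABCA subfamily and had 317, 756 and 972 TPM in WT and 346, 453 and 1367 TPM in cKO. It had the largest spread of the genes that followed the common order of libraries, and limma gave a log2 difference of -0.04 (standard error 0.61, adjusted p = 0.980). Its neighbouring paralog *Abca8b* was far lower, with a mean of 39.8 TPM. The split of shared reads between them by the authors' quantification was not tested.

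*Sox9*, a transcription factor of Mueller glia and retinal progenitors, had 102, 330 and 250 TPM in WT and 77.2, 89.1 and 230 TPM in cKO. The fitted log2 difference was -0.80, with a standard error of 0.56 (limma, adjusted p = 0.485). *Hes1*, a transcriptional repressor induced by Notch signalling, had 361, 1252 and 50.4 TPM in WT and 218, 251 and 42.9 TPM in cKO. The values of *Hes1* differed 24.8-fold between the highest and the lowest WT library and 5.84-fold in cKO, against at most 3.24-fold in WT and 3.95-fold in cKO for the other 9 genes. Its fitted difference, -1.09 on the log2 scale, was smaller than its standard error of 1.19 (limma, adjusted p = 0.658).

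Between the labels, none of the 10 genes was higher or lower at an adjusted p under 0.05 from limma, where 0.00570% of the 17555 genes were called higher and 0% lower. At an unadjusted p under 0.05 none of the 10 was higher and none was lower, beside 11.9% of all genes higher and 6.45% lower (2095 and 1133 genes, or 1338 and 1675 after the median-of-ratios scaling described below). With DESeq2, the paper called many more genes at an adjusted p under 0.05, most of them lower, and its fit was not repeated here. In none of the 10 did the groups separate, whereas every cKO library lay above every WT library in 18.7% of genes and below in 7.18%. Exact two-sided permutation tests of the single genes gave p between 0.2 and 1, where 0.1 is the smallest that 3 libraries against 3 allow. The median log2 fold change of the 10 genes was -0.53, against 0.16 over all genes tested. The fitted value was under 0 in each of the 10, as in 38.9% of all genes, but for *Slc1a3*, *Dkk3* and *Abca8a* the sign turned when some single libraries were left out. When each library was scaled by the median of ratios, which brought the median of all genes to 0.01, the 10 genes had a median of -0.70.

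These data leave room for sizeable differences in either direction. The 95% interval of the log2 fold change ran from -1.36 to 0.47 for *Rlbp1*, from -1.64 to 0.40 for *Clu*, from -1.58 to 0.69 for *Glul* and from -3.90 to 1.72 for *Hes1*. A blocked fit, in which same-numbered WT and cKO libraries were paired, narrowed the intervals but called none of the 10 genes at an adjusted p under 0.05. The pairing was chosen from these same expression values, so the narrower intervals are no separate evidence for it. In the blocked fit *Hes1* reached an unadjusted p of 0.0453 from limma (adjusted p = 0.218), and the interval of *Clu* ran from -1.37 to 0.13. Without cKO replicate 3, 4 genes were lower at an unadjusted p under 0.05, namely *Clu* (log2 fold change -1.05, adjusted p = 0.167), *Sox9* (-1.28, adjusted p = 0.230), *Kcnj10* (-1.17, adjusted p = 0.222) and *Aqp4* (-1.11, adjusted p = 0.239 from limma). Without WT replicate 1 only *Sox9* was (-1.29, adjusted p = 0.291 from limma), and without WT replicate 3 only *Hes1* (-2.33, adjusted p = 0.326 from limma). Of all 17555 genes, 1220 were lower at this threshold without cKO replicate 3, 1183 without WT replicate 1 and 900 without WT replicate 3. The fitted value of *Hes1* rested on single libraries, at -0.022 without WT replicate 2 and -0.28 without cKO replicate 3.

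**Figure D2:**
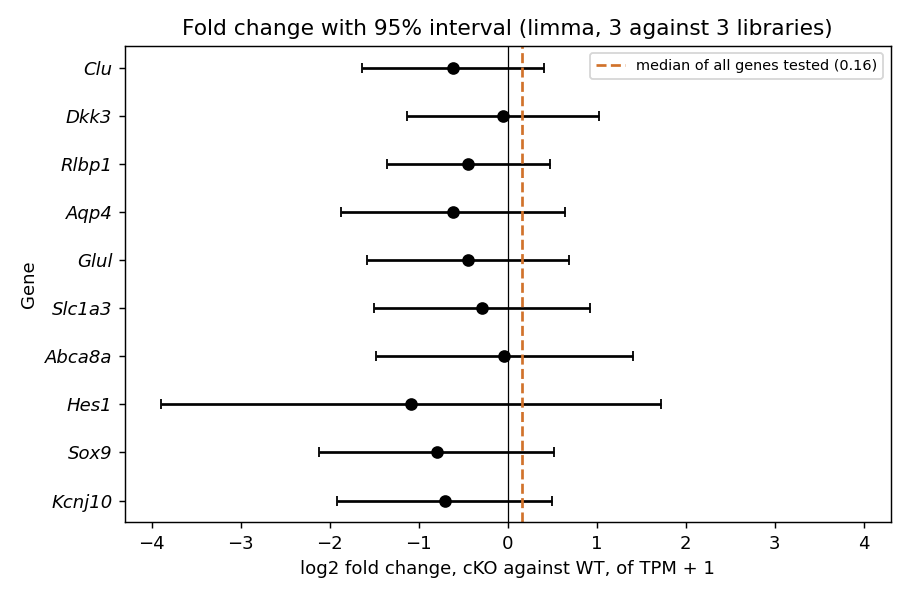
Log2 fold change of each gene, cKO against WT, on log2(TPM + 1), with its 95% interval from limma (3 against 3 libraries). The solid line marks 0 and the dashed line the median of all genes tested, 0.16. Each of the 10 intervals includes 0, and that of *Hes1* is the widest.

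The spread lay between libraries of the same label. The within-label SD of log2(TPM + 1) had a median of 0.78 over the 10 genes and 0.41 over all genes tested, and it was above the latter in each of the 10, from 0.55 in *Rlbp1* to 1.92 in *Hes1*. The genes moved together. In 9 of the 10, WT replicate 1 was the lowest WT library, as in 46.6% of all genes, and in 9 of the 10, cKO replicate 3 was the highest cKO library, as in 40.8% of all genes. In the same 9 genes cKO replicate 3 was over 2 times both other cKO libraries, which held for 6.15% of all genes. *Hes1* was the exception in each case. It was highest in WT replicate 2 and lowest in the libraries numbered 3 of both labels, where the other 9 genes were above their mean over the 6 libraries.

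**Figure D3:**
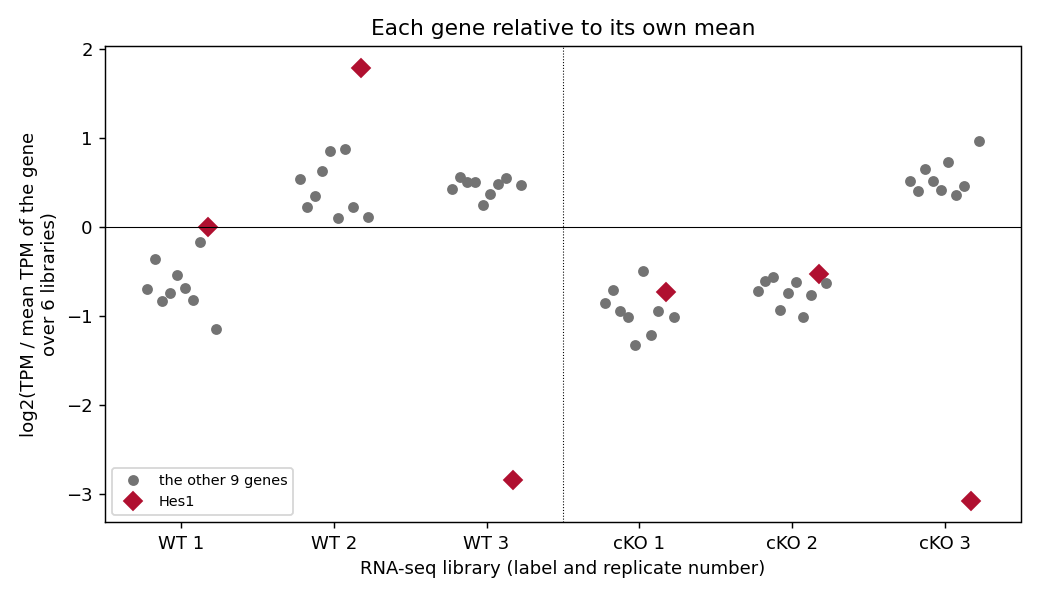
TPM of each gene in each RNA-seq library relative to that gene's mean over the 6 libraries, on a log2 scale, with *Hes1* as red diamonds and the other 9 genes as grey circles. The 9 genes lie below 0 in WT replicate 1 and cKO replicates 1 and 2 and above 0 in WT replicates 2 and 3 and cKO replicate 3, and *Hes1* falls furthest in both libraries numbered 3.

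Since the 9 genes moved together, the mix within the set was also described, with each gene as a share of the summed TPM of the 10. This comparison was added after the values were seen. *Dkk3* made up 23.1%, 23.0% and 25.5% of the sum in WT and 33.1%, 28.4% and 30.6% in cKO. It was the only one of the 10 whose shares did not overlap, with a mean of 23.9% ± 1.40 in WT and 30.7% ± 2.33 in cKO (SD, n = 3). The exact permutation test of these shares, two-sided, gave p = 0.1, the minimum for 3 against 3. Divided by the same sum, every cKO library lay above every WT library in 11.0% of all genes and below in 2.14%. A single gene of the 10 is therefore about what the share over all genes gives. *Clu* made up 43.0%, 32.6% and 37.5% in WT and 31.4%, 33.5% and 33.0% in cKO, and these overlapped. *Glul* (7.03% ± 1.09 in WT, 6.85% ± 0.11 in cKO) and *Rlbp1* (9.73% ± 0.78 in WT, 9.55% ± 0.85 in cKO, SD, n = 3) kept shares that differed by less than the spread between replicates.

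For chromatin, the authors' ATAC-seq comparison holds 1 log2 value per region and group, the mean of their normalized reads, and none per library, so no replicate spread was computed and no test was made here. Peak lists were deposited for each library, called one library at a time, with positions alone. A region counted as lower in cKO at a log2 difference of -1 or below. Of the 10 genes, 2 had a region within 1000 bp of an end, *Glul* and *Clu*, against 51.5% of the 15516 genes tested by RNA-seq that have a position and 63.0% of those with a mean of at least 100 TPM.

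The *Glul* region lay on chromosome 1 from 153899692 to 153900597 (GRCm38), over the start of the gene, and covered 287 of the 300 bases of the window printed above. Its log2 reads were 5.75 in WT and 2.83 in cKO, a difference of -2.92. The *Clu* region lay on chromosome 14 from 65968230 to 65968994, over the lower-numbered end of the gene, with 4.38 in WT and 2.90 in cKO, a difference of -1.48. Both regions had a peak in each WT library and none in a cKO library. Both were lower in cKO, as were 93.1% of the 6966 regions within 1000 bp of an end of a tested gene, whose median difference was -2.58, and 59.8% of all regions.

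Further from the gene ends, 4 other regions were found. One on chromosome 1 from 172376047 to 172377272, 1962 bp beyond *Kcnj10*, had 5.73 in WT and 2.42 in cKO. One inside *Kcnj10*, from 172349401 to 172350805, had 4.56 and 3.50, and one inside *Dkk3*, on chromosome 7 from 112129855 to 112130590, had 4.81 and 2.40. Each of these 3 had a peak in both WT libraries and in neither cKO library. The remaining region went the other way. It lay inside *Slc1a3*, on chromosome 15 from 8701368 to 8701676, 9131 bp from the nearer gene end, with -0.19 in WT and 2.82 in cKO. A peak was listed there in cKO replicates 1 and 2 but in neither of WT. Both values were low, at 0.877 and 7.06 normalized reads. The cKO value was close to those of the *Glul* and *Clu* regions, 2.83 and 2.90, where no cKO peak was listed. Those regions are wider, at 906 and 765 bp against 309 bp. The values are reads per region, so they do not compare the density of reads. Peaks and group values come from the same libraries, so the peaks are no separate evidence of a difference. The annotation used gives gene bounds without exons.

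**Figure D4:**
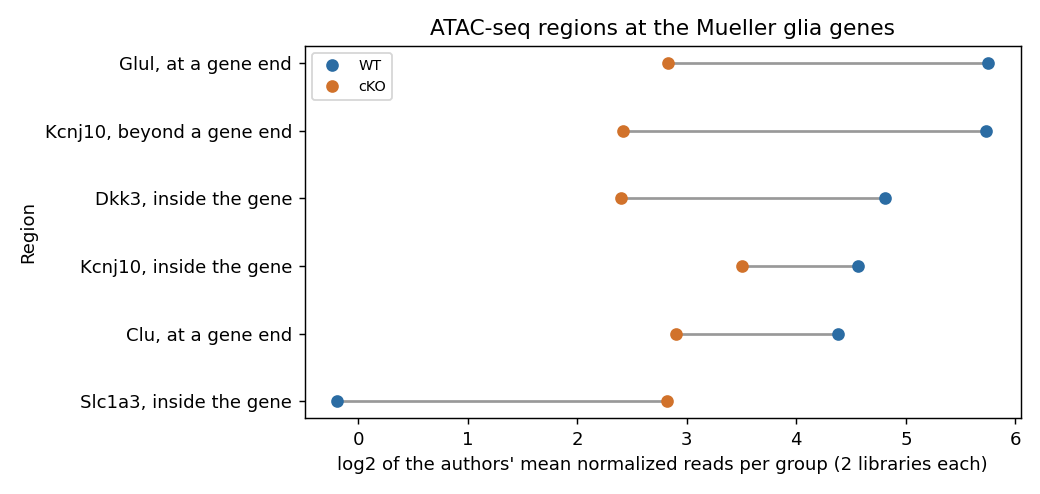
ATAC-seq regions at or near the Mueller glia genes, with the authors' log2 mean normalized reads in WT (blue) and cKO (orange, 2 libraries each, no value per library). In 5 regions the WT value is the higher, and in the region inside *Slc1a3* the cKO value is.

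The peak lists showed how the libraries differed at these genes. In total they hold 76522 and 42265 peaks in WT replicates 1 and 2 and 55902 and 68317 peaks in cKO replicates 1 and 2. A peak within 1000 bp of a gene end was found for 3 of the 10 genes in WT replicate 1 (*Glul*, *Clu* and *Rlbp1*) and for 7 in WT replicate 2, against 65.1% and 58.2% of all tested genes with a position. It was found for 2 of the 10 in cKO replicate 1 (*Aqp4* and *Sox9*) and 1 in cKO replicate 2 (*Slc1a3*), against 13.6% and 13.9%. In both WT libraries it was found for *Glul* and *Clu* only, against 51.6% of all tested genes, and in both cKO libraries for none of the 10, against 2.28%. *Hes1* had a peak of 1326 bp at its lower-numbered end, on chromosome 16 from 30064081 to 30065406, in WT replicate 2 alone. *Sox9* had a peak in WT replicate 2, on chromosome 11 from 112781772 to 112782362, and a separate one in cKO replicate 1, from 112782395 to 112782770. *Rlbp1* had 3 peaks, all in WT replicate 1. One was at its higher-numbered end, and one was centred 292 bp after the RefSeq start site of its start-site window, which lies inside the gene. Another, from 79378239 to 79378589 on chromosome 7, also lay inside the gene. *Abca8a* had no peak at an end in any library, although 5 peaks of WT replicate 1, 2 of WT replicate 2 and 1 of cKO replicate 1 lay inside it. The labels do not tie ATAC-seq libraries to RNA-seq libraries of the same number.

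Other genes of the same functions were taken from lists written by hand. None of the genes in these lists, or in the marker lists of other cells given after them, passed an adjusted p under 0.05 from limma, so counts of genes higher or lower are given at an unadjusted p under 0.05, which 11.9% of all genes passed as higher and 6.45% as lower. Of 24 further Mueller glia markers, 5 were lower and none was higher, with a median log2 fold change of -0.35. The lowest p was that of *Crym*, the thyroid hormone-binding protein mu-crystallin, with 350, 703 and 642 TPM in WT and 182, 210 and 325 TPM in cKO (log2 fold change -1.22, standard error 0.35, adjusted p = 0.157). *Apoe*, the lipid carrier, had 3325, 5236 and 5973 TPM in WT and 1909, 2060 and 3583 TPM in cKO (log2 fold change -0.96, standard error 0.36, adjusted p = 0.227 from limma). Unlike the groups of the 10 genes, those of *Crym* did not overlap, but cKO replicate 3 was again the highest cKO library.

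Of 13 tested genes of glutamate and amino acid recycling, 5 were higher and none was lower, with a median of 0.42. Among them *Slc6a9*, the glycine transporter GLYT1, which amacrine cells also use, had 252, 130 and 83.2 TPM in WT and 524, 741 and 449 TPM in cKO (log2 fold change 1.99, adjusted p = 0.124 from limma). *Slc1a7*, the glutamate transporter EAAT5 of photoreceptors and bipolar cells, had 13.9, 12.6 and 15.3 TPM in WT and 29.7, 38.2 and 29.5 TPM in cKO (log2 fold change 1.16, adjusted p = 0.124 from limma). Of 13 visual cycle genes, 4 were higher and none was lower, with a median of -0.07. The lowest p was that of *Rbp3*, the photoreceptor-made retinoid carrier of the matrix, with 340, 328 and 575 TPM in WT and 722, 1198 and 1688 TPM in cKO. Both lists hold genes of neurons, and the genes named here are neuronal or photoreceptor genes.

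Of 17 genes of potassium, water and ion handling, 1 was higher and 1 lower, no more than the shares of 11.9% and 6.45% over all genes, and these were *Dmd*, dystrophin (log2 fold change 0.87, adjusted p = 0.168), and *Utrn*, utrophin (-1.06, adjusted p = 0.152 from limma). Of 27 genes of Notch signalling and glial transcription factors, 1 was higher, fewer than the share of 11.9% gives. In the same list 2 were lower, close to the share of 6.45%, and the median was -0.32. *Id2*, an inhibitor of basic helix-loop-helix factors, had 457, 314 and 518 TPM in WT and 217, 164 and 234 TPM in cKO (log2 fold change -1.05, adjusted p = 0.139 from limma). Of 4 tested Wnt inhibitors and co-receptors 1 was lower, *Dkkl1*, with 8.46, 10.2 and 10.1 TPM in WT and 2.97, 1.87 and 4.39 TPM in cKO. Of 15 lipid carriers and transporters, 2 were higher and 1 lower, again close to the shares over all genes. *Vldlr*, a receptor for lipoproteins, had 16.3, 24.8 and 15.7 TPM in WT and 37.5, 40.5 and 30.4 TPM in cKO (log2 fold change 0.92, adjusted p = 0.159 from limma).

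Of 15 reactive gliosis genes, 4 were lower and 1 higher, with a median of -0.74. *Gfap* had 63.0, 75.7 and 116 TPM in WT and 17.3, 25.7 and 37.5 TPM in cKO (log2 fold change -1.64, standard error 0.36, adjusted p = 0.124 from limma). *Vim*, vimentin, had 321, 334 and 348 TPM in WT and 153, 158 and 257 TPM in cKO (log2 fold change -0.86, standard error 0.25, adjusted p = 0.163 from limma). In both, every cKO library lay below every WT library, and cKO replicate 3 was the highest cKO library, as in 9 of the 10 homeostatic genes. *Gfap* is also made by astrocytes, of which 5 of 8 markers were tested and 1, *Gfap* itself, was lower.

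Marker lists of other cells were summed in the same way, and some of the sums were apart between the labels. The 10 rod genes summed to between 12607 and 17594 TPM in WT and between 26358 and 49004 TPM in cKO, with all 10 higher at an unadjusted p under 0.05 and a median log2 fold change of 1.44. For cones 7 of 9 and for amacrine cells 4 of 9 genes were higher and none was lower, beside 11.9% of all genes. For bipolar cells and for RGCs 2 of 9 tested genes were higher, about 1 gene more than that share gives, and the bipolar sums overlapped between the labels (1074 to 1610 TPM in WT and 1452 to 2315 TPM in cKO). The 12 microglia and macrophage genes summed to between 2296 and 3811 TPM in WT and between 1106 and 1433 TPM in cKO (5 lower), and the 9 T cell genes to between 504 and 1631 TPM in WT and between 141 and 338 TPM in cKO (8 lower). Of 8 endothelial and pericyte genes tested 2 were lower, with sums that were apart (307 to 628 TPM in WT and 183 to 275 TPM in cKO). Of 4 oligodendrocyte genes tested 1 was lower, with sums that overlapped (75.5 to 93.6 TPM in WT and 50.2 to 76.5 TPM in cKO). Pigment epithelium genes summed to at most 8.19 TPM in any library, with neither of its 2 tested genes called. The summed levels of the 10 Mueller glia genes overlapped between the labels. Those of rods, cones, amacrine cells, RGCs, microglia, T cells, and endothelial cells with pericytes did not. The part of these other cells in the Mueller glia values was not tested.

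**Figure D5:**
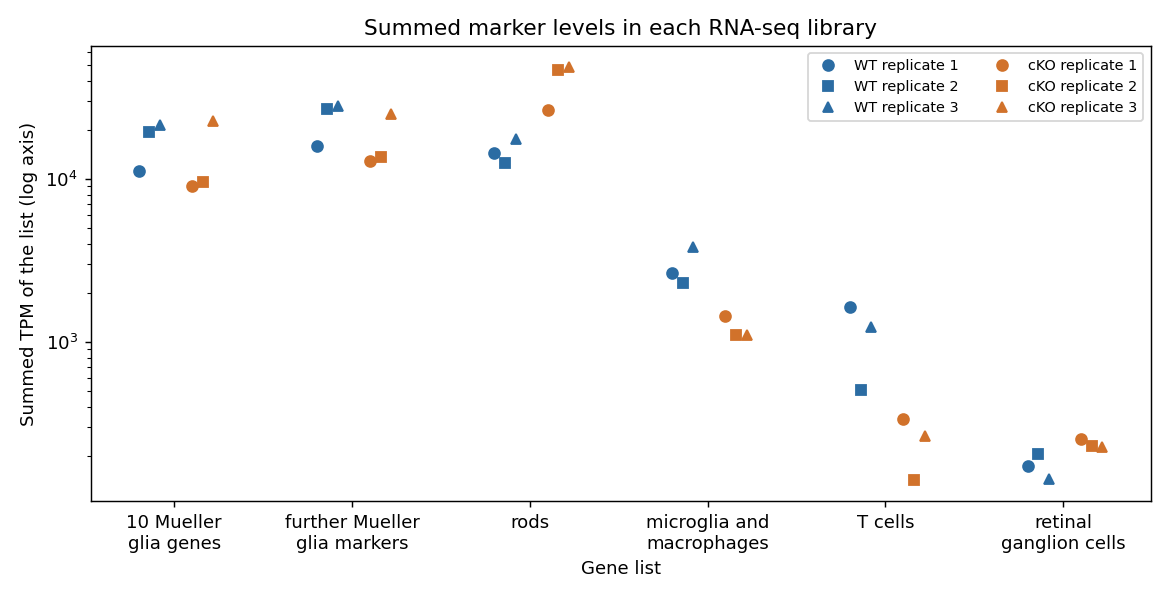
Summed TPM (log axis) of the 10 Mueller glia genes, 24 further Mueller glia markers and the markers of 4 other cell types in each RNA-seq library, WT in blue and cKO in orange, with a symbol per replicate number. The WT and cKO points overlap for both Mueller glia lists and are apart for rods, microglia and macrophages, T cells and RGCs. The RGC sum is mostly that of *Thy1* and *Isl1*.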

How the data were processed

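RNA-seq was measured in 6 libraries and ATAC-seq in 4. The authors filtered the reads, quantified them with Salmon 1.0.0, summed them to genes with tximport on GENCODE vM23 and deposited TPM for each library, without scaling between libraries. The deposited log2 values of ATAC-seq are the authors' mean normalized reads per group from DiffBind, after alignment with Bowtie2 2.3.5.1 to GRCm38. The submitters' processing notes name MACS2 2.2.5, with settings not given in the sources used here. Peak lists hold positions. Fold changes, p-values and FDRs of the authors' own comparisons were deposited too and were not used.

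The 17555 genes that reached 1 TPM in 3 or more libraries were tested on log2(TPM + 1) by limma 3.58.1 (R 4.3.3), using trended empirical Bayes moderation, and p-values were adjusted over these genes by Benjamini-Hochberg with a threshold of 0.05. Fold changes on this scale understate the change of low genes. Nothing says whether replicates share animals or a preparation, so p-values measure the spread between these libraries. Groups came from sample titles. Same-numbered WT and cKO libraries deviated together across genes (r = 0.334, 0.101 and 0.425), which is the only source of the pairing. Libraries with different numbers gave r from -0.386 to 0.193, the highest for WT replicate 1 with cKO replicate 2, above that of the pair numbered 2. Each same-numbered r was over the limit of 0.1, so a second fit carried the replicate number as a block. ATAC-seq could not be paired, since its comparison gives group values alone. The other alternatives were adding 0.1 to TPM, testing without the low-value filter, requiring a mean of at least 5 TPM, median-of-ratios scaling, no trend, leaving out each library, 3000 bp, whole gene bodies, a difference of -2 and centred differences.

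Gene positions and start-site windows are RefSeq's on GRCm38.p6. Positions are counted from 1. Tables were handled in Python 3.11.15 with pandas 2.3.3 and numpy 2.4.6, and figures drawn with matplotlib 3.10.9. The fit and the overlap search were tested on simulated data. The members and lists were chosen with earlier results of these data known. Genes named beside the 10 are the 2 of highest mean TPM and the 2 of lowest p in each list, not all of which are printed, and any other is marked in the text as picked from its values or is a marker. Of the 16 amino acid recycling genes, 15 were matched by symbol.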

Additional observations from a re-analysis of the deposited data

How the results depend on the processing

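None of the 10 genes was called at an adjusted p under 0.05 from limma in the 12 alternatives to the RNA-seq fit (120 values), and none was higher at an unadjusted p under 0.05. The count lower at an unadjusted p under 0.05, 0 as reported, was 1 with the replicate block and from 0 to 4 on leaving out single libraries. The median log2 fold change stayed between -0.84 and -0.29 in the latter and was -0.70 after median-of-ratios scaling. The fitted sign of 3 genes, none of them called, turned. *Dkk3* was at 0.03 without WT replicate 2, 0.17 without WT replicate 3, 0.13 without cKO replicate 1, 0.19 without cKO replicate 2 and 0.50 relative to the other 9 genes (an alternative chosen after seeing the data). *Abca8a* was at 0.11, 0.29, 0.35, 0.16 and 0.39 in the same order. *Slc1a3* was at 0.041 without cKO replicate 1 and 0.13 relative to the other 9. Leaving out single libraries gave a range from -0.48 to 0.19 for *Dkk3*, from -0.63 to 0.35 for *Abca8a*, from -0.76 to 0.041 for *Slc1a3* and from -2.33 to -0.022 for *Hes1*. Of 130 single-gene values, 118 kept their sign. ATAC-seq regions lower in cKO numbered 2 within 1000 bp of a gene end, 3 within 3000 bp, 4 with gene bodies, 1 at a difference of -2 or below, and 1 when centred on the median difference of all regions. The first 3 of these changes follow from the wider or stricter definition, and centring took out the *Clu* region, whose difference of -1.48 was close to the median of -1.57. Over all genes, 1 was higher at an adjusted p under 0.05 from limma and 4 were without the trend. The 2095 genes higher at an unadjusted p under 0.05 became 1338 after median-of-ratios scaling and between 1034 and 2366 on leaving out single libraries. The 1133 genes lower became 1675 after that scaling, 1495 with the replicate block and between 697 and 1386 on leaving out single libraries. Depth is unknown for each library, so no counting error can be given.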

Other observations

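The libraries in which *Hes1* departed from the other 9 genes were looked at in the Notch list, with genes chosen after their values were seen. *Rax*, a homeobox factor of retinal progenitors that Mueller glia keep, had 49.1, 267 and 9.87 TPM in WT replicates 1, 2 and 3 and 21.5, 25.4 and 15.0 TPM in cKO, so that WT replicate 2 was its highest library and WT replicate 3 its lowest. *Nrarp*, a Notch-induced regulator of the pathway, had 81.7 TPM in WT replicate 2 and between 1.91 and 5.68 TPM in the other 5 libraries. *Hes5*, another Notch-induced repressor, had 124, 647 and 244 TPM in WT and 79.9, 75.5 and 288 TPM in cKO. It too was highest in WT replicate 2, but unlike *Hes1* it was not low in the libraries numbered 3. *Sox8* had 30.7, 140 and 72.5 TPM in WT and 27.1, 25.6 and 85.7 TPM in cKO, an order of libraries close to that of *Sox9*. None of these was called between the labels (adjusted p between 0.381 and 0.560 from limma).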
